A study of Mus musculus with 6 samples.

Results

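The 38 genes described here encode proteins that build ribosomes in the nucleolus, and they were taken by symbol from the deposited expression table, where all 38 of the listed symbols were found among 17933 genes. RNA was measured in whole kidney of wild-type male C57BL/6 mice aged 6 to 8 weeks. The stone group (3 samples) came from mice injected intraperitoneally with 120 mg/kg glyoxylic acid, an oxalate precursor, each day for 12 days, which gives calcium oxalate stones. The control group (3 samples) came from mice that were given saline instead. The labels do not say that each sample came from a separate mouse, so the spread behind each p-value is that between samples and may be technical in part.

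Ribosomes are made in the nucleolus, where RNA polymerase I transcribes the long ribosomal RNA precursor. Small nucleolar RNAs (snoRNAs) in particles with core proteins guide chemical changes of that RNA. Box C/D particles guide methylation and box H/ACA particles guide the conversion of uridine to pseudouridine. The SSU processome folds and cuts the part that becomes the small (40S) subunit, and a separate series of factors builds the large (60S) subunit. In the adult kidney most cells rarely divide, and production of ribosomes is known to rise when cells grow or re-enter division.

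Most of these transcripts were higher in stone kidneys, by amounts below 2-fold, and Nhp2 was lower. Expression values are FPKM, fragments normalized for transcript length and sample total, as deposited by the authors, and differences are stone minus control on the log2(FPKM + 1) scale, which understates changes of low genes. All 38 genes passed the filter, a 6-sample mean of 1 FPKM or more. In limma, with p adjusted by Benjamini-Hochberg and a threshold of 0.05, 34 of 38 were higher and 1 was lower, where 43.5% of all 12319 tested genes were higher and 13.9% lower. Utp20, Rrp9 and Bop1 did not pass. The median difference was 0.46 for the 38 genes and 0.21 for all tested genes, and 33 of the 38 lay above the median of all genes. The 3 stone values lay above the 3 control values for 33 genes, against 49.8% of all tested genes, and below them for 1 gene, against 16.5%.

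The size of these differences depended on how samples were scaled. FPKM sums were 711768 to 758514 in control and 609705 to 613885 in stone samples, and Kap, a proximal tubule transcript, held 19.3% to 23.2% of the sum in controls and 1.18% to 2.26% in stone samples. Median-of-ratios scaling, which centres the typical gene, shifted the median of all tested genes by -0.22. After it, 21 of the 38 genes were higher and 1 was lower (limma, adjusted p below 0.05), where 22.5% of all tested genes were higher and 26.2% lower. The median difference of the 38 genes was then 0.25, against -0.01 for all tested genes, and 33 of the 38 had a difference above 0, against 48.6% of all tested genes. Of all calls, 75.8% were higher as deposited, 46.3% after median-of-ratios scaling, 46.7% after quantile normalization and 91.4% with equal FPKM sums. Of the calls among the 38 genes, 97.1%, 95.5%, 95.2% and 97.4% were higher under the same settings. Each difference below is as deposited unless a scaling is named. In whole tissue, a change in the number of cells of a type and a change in RNA per cell, such as fewer cells against less RNA in each, cannot be told apart.

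**Figure D1:**
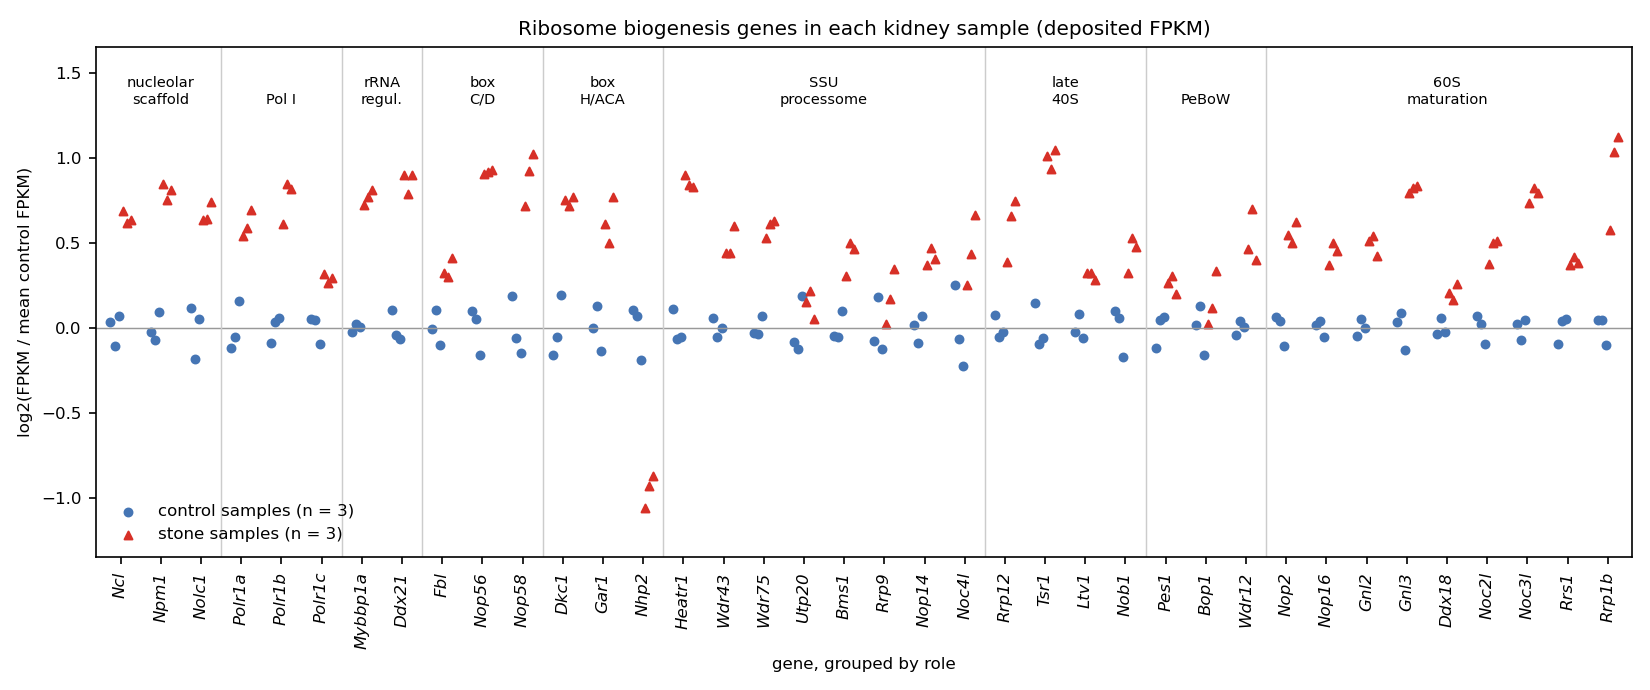
Each symbol is 1 sample, placed by log2 of its FPKM over the mean of the 3 control samples (vertical axis), for the 38 genes grouped by role (horizontal axis). The stone samples (triangles) lie above the control samples (circles) for 33 genes and below them for Nhp2.

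Promoter sequence is shown first, since 6-base motifs recur in these genes. RefSeq promoters (GRCm38.p6, from 250 bases before to 50 bases after the annotated start) were found for 32 of the 38 genes, 36 promoters in all. The letters CGGAAG or CTTCCG, the core of the site bound by ETS-family transcription factors read on either strand, were in 19 of 36 promoters (52.8%). They were in 16.9% of all RefSeq promoters, 29.7% of promoters of tested genes and 59.4% of promoters of cytosolic ribosomal protein genes. The palindrome CACGTG, the E-box bound by MYC and related factors, was in 7 of 36 (19.4%), against 7.15% of all promoters, 9.78% of those of tested genes and 11.6% of those of ribosomal protein genes. The motifs were searched on both strands, and a match is a description of letters, not a bound site. The windows below hold 30 bases each, 5′ to 3′ on the strand of the gene, with the motif in capitals. They were chosen to show the gene that fell (Nhp2), its partner Gar1, the gene with the largest increase (Tsr1, both motifs), genes that rose (Mybbp1a, Heatr1) and a gene that did not pass (Rrp9).
Nhp2, chr11:51619739-51619768, plus strand: cacttgaaaaccCGGAAGtgatgtcggagg
Gar1, chr3:129831469-129831498, minus strand: cagctgttagcaCGGAAGgactcaaacaac
Tsr1, chr11:74898014-74898043, plus strand: cgcgagaggtcgCGGAAGtgctaagcctga
Tsr1, chr11:74898092-74898121, plus strand: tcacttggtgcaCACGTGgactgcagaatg
Mybbp1a, chr11:72441259-72441288, plus strand: ggcaaggccgtaCGGAAGccacttccaacc
Heatr1, chr13:12395348-12395377, plus strand: gtagtgagaagcCGGAAGttcctatgaggc
Rrp9, chr9:106477224-106477253, plus strand: ccaatggagctgCGGAAGgtggggcccgct

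The same motif thus stood before the RefSeq start of genes that rose, fell and did not pass. The GENCODE M21 starts of Nhp2, Heatr1 and Rrp9 (51619735, 12395027 and 106475963) lie before the windows shown, which are inside the gene by that annotation. Nop2 held 1 CACGTG and 3 copies of CGGAAG or CTTCCG in the 250 bases before its start, all in capitals in the sequence that follows.
Nop2, chr6:125131633-125131882, plus strand: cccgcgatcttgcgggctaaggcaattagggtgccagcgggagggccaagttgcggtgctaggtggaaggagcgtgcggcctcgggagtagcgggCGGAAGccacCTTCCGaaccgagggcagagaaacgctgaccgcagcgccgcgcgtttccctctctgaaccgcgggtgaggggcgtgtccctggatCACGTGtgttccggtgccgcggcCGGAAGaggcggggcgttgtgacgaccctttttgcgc

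Median differences of genes with and without a motif are given as a description, and a link between motif and difference was not tested. The 18 genes with CGGAAG or CTTCCG had a median difference of 0.48, and the 14 with a promoter and without the motif 0.58. The 7 genes with CACGTG had a median of 0.45 and the 25 without it 0.52. Among all tested genes the medians were 0.17 with and 0.23 without CGGAAG or CTTCCG, and 0.201 with and 0.206 without CACGTG.

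The 3 genes of the nucleolar scaffold and its chaperones rose. Npm1, which encodes nucleophosmin, the histone and ribosome chaperone of the outer nucleolus, was the most abundant of the 38 genes. It measured 139, 134 and 151 FPKM in control samples and 254, 238 and 247 FPKM in stone samples. Every stone value was far above every control value, a difference of 0.80 with a standard error of 0.066 (limma, adjusted p = 0.000126). Ncl, which encodes nucleolin, a nucleolar RNA-binding protein, measured 37.0, 33.5 and 37.9 FPKM in control and 58.2, 55.3 and 56.0 FPKM in stone samples. The Ncl groups did not overlap, and the difference was 0.63 (limma, adjusted p = 0.000308). Nolc1, a chaperone of small nucleolar particles, rose from 10.2 ± 1.095 to 16.3 ± 0.686 FPKM (SD, n = 3 each). All 3 were also higher after median-of-ratios scaling.

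Genes of RNA polymerase I transcription rose, the shared subunit least. Polr1b, the second largest subunit, measured 4.87, 5.30 and 5.39 FPKM in control and 7.92, 9.33 and 9.13 FPKM in stone samples. Its difference was 0.66 with a standard error of 0.086 (limma, adjusted p = 0.000779), and stone 1 was the lowest of the stone samples. Polr1a, the largest subunit, rose from 4.90 ± 0.505 to 7.47 ± 0.420 FPKM (SD, n = 3 each). Polr1c is a subunit that RNA polymerase III also uses, and it rose from 24.1 ± 1.38 to 29.5 ± 0.492 FPKM. The Polr1c difference of 0.28 (limma, adjusted p = 0.00753) was 0.03 after median-of-ratios scaling, and that call was lost (limma, adjusted p = 0.739).

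Both regulators of ribosomal RNA transcription were in the upper part of the list. Ddx21, an RNA helicase that acts at RNA polymerase I and II genes, measured 11.5, 10.4 and 10.2 FPKM in control and 19.9, 18.4 and 19.9 FPKM in stone samples. The Ddx21 difference was 0.80 with a standard error of 0.072 (limma, adjusted p = 0.000173). Mybbp1a, a nucleolar protein that binds MYB and p53, rose from 16.2 ± 0.262 to 27.6 ± 0.826 FPKM (SD, n = 3 each), with a difference of 0.73 (limma, adjusted p = 9.81e-05). Mybbp1a shares 131 exonic bases, 2.26% of its exonic length, with Spns2 on the opposite strand, and Spns2 measured 18.3 to 19.6 FPKM in control and 72.1 to 78.9 FPKM in stone samples. The sources used here do not say whether fragments were counted by strand, and the part of Spns2 fragments in the Mybbp1a values was not tested.

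Within the box C/D particle the scaffold genes had larger differences than the enzyme gene. Nop56 and Nop58 are the paired scaffold proteins and Fbl encodes fibrillarin, the methyltransferase. Nop56 measured 13.7, 13.3 and 11.5 FPKM in control and 24.0, 24.2 and 24.4 FPKM in stone samples. Its stone values were nearly equal and its difference was 0.87 with a standard error of 0.077 (limma, adjusted p = 0.000173). Nop58 measured 13.3, 11.2 and 10.5 FPKM in control and 19.2, 22.1 and 23.7 FPKM in stone samples, a difference of 0.84 (limma, adjusted p = 0.000795). The Nop58 groups did not overlap, with stone 1 the lowest stone sample. Fbl measured 32.9, 35.5 and 30.8 FPKM in control and 41.2, 40.6 and 43.9 FPKM in stone samples, a difference of 0.34 (limma, adjusted p = 0.0059). The Fbl difference was 0.09 after median-of-ratios scaling and was then not called (limma, adjusted p = 0.417).

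Ratios within a sample do not change when each sample is multiplied by its own factor, as in median-of-ratios scaling. Quantile normalization can change them, and the ratios here are of deposited FPKM. The ratio of Fbl to Nop56 FPKM was 2.39, 2.67 and 2.68 in control samples and 1.72, 1.68 and 1.80 in stone samples. Fbl to Nop58 fell in the same way, from a mean of 2.85 to 1.95, while Nop56 to Nop58 averaged 1.102 in control and 1.12 in stone samples and overlapped. Of 12 such ratios within 4 complexes, 6 did not overlap between groups. With 3 samples against 3 the smallest two-sided exact permutation p is 0.1, which these 6 reached, and after Benjamini-Hochberg adjustment over the 12 ratios it was 0.2, so none could pass.

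The box H/ACA particle held the only gene of the 38 that fell. Dkc1 encodes dyskerin, the pseudouridine synthase, Gar1 and Nhp2 are core proteins beside it, and the same proteins bind the RNA of telomerase. Nhp2 measured 110, 107 and 89.8 FPKM in control samples and 49.1, 53.7 and 55.9 FPKM in stone samples. Its lowest control value was far above its highest stone value, and the mean in stone samples was 0.517 times that in control samples. The Nhp2 difference was -0.93 with a standard error of 0.093 and a 95% confidence interval from -1.15 to -0.72 (limma, adjusted p = 0.000269), at percentile 2.39 of all tested genes. After median-of-ratios scaling it was -1.19 (limma, adjusted p = 0.000131).

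Dkc1 measured 4.88, 5.25 and 6.25 FPKM in control and 9.20, 8.97 and 9.29 FPKM in stone samples, a difference of 0.66 (limma, adjusted p = 0.00112). Gar1 measured 5.0, 5.46 and 4.55 FPKM in control and 7.64, 7.08 and 8.53 FPKM in stone samples, a difference of 0.54 (limma, adjusted p = 0.00287). Both genes rose while Nhp2 fell, so the Dkc1 to Nhp2 ratio went from 0.0543 ± 0.0134 to 0.173 ± 0.0119 and the Gar1 to Nhp2 ratio from 0.0490 ± 0.00307 to 0.147 ± 0.0130 (SD, n = 3 each). Those are changes of 3.19-fold and 2.99-fold, the largest of the 12 ratios, and neither overlapped between groups. The Dkc1 to Gar1 ratio overlapped, at means of 1.104 and 1.19. Nop10, the remaining core protein of the particle, stood at 165 ± 7.26 and 155.5 ± 4.25 FPKM with no call (limma, adjusted p = 0.242), but it was called lower at -0.34 by median-of-ratios scaling (limma, adjusted p = 0.0077). With equal FPKM sums Nop10 was called higher instead, at 0.19 (limma, adjusted p = 0.0156), so its direction was not settled. It was chosen once its values were known. Nhp2 shares 44 exonic bases, 3.84% of its exonic length, with Rmnd5b on the opposite strand, and Rmnd5b overlapped between groups at 18.9 to 20.6 FPKM in control and 18.2 to 20.2 FPKM in stone samples.

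**Figure D2:**
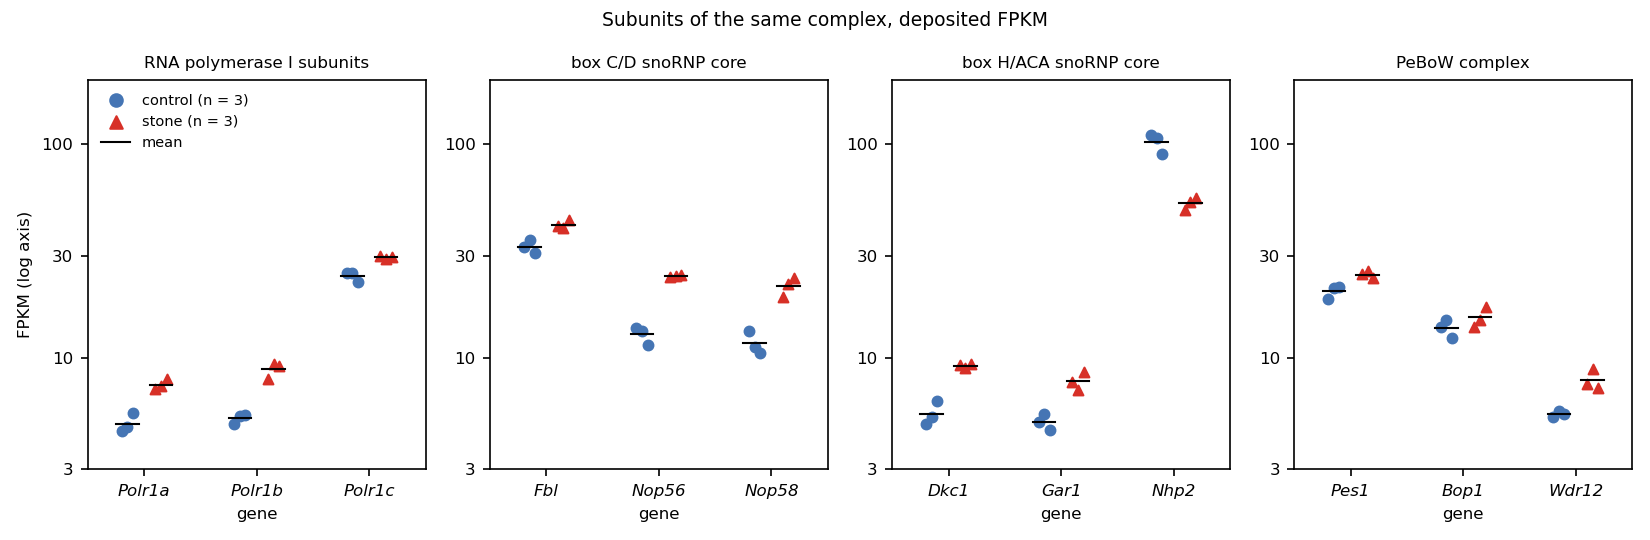
FPKM of each sample on a log axis (vertical) for the subunit genes of 4 complexes (horizontal), with control samples as circles, stone samples as triangles and group means as bars. Nhp2 falls from a mean of 102 to 52.9 FPKM while Dkc1 and Gar1 rise, and Fbl rises less than Nop56 and Nop58.

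Of the 8 SSU processome genes, 6 were higher and 0 lower, at an adjusted as at an unadjusted limma p below 0.05. Of all tested genes 43.5% were higher and 13.9% lower at the adjusted p. After median-of-ratios scaling 3 of the 8 were higher and 0 lower, against 22.5% and 26.2% of all tested genes. Heatr1, a large scaffold of the particle that also acts in RNA polymerase I transcription, measured 3.17, 2.81 and 2.83 FPKM in control and 5.48, 5.26 and 5.2 FPKM in stone samples. The Heatr1 groups were well apart, with a difference of 0.68 (limma, adjusted p = 0.00056). Wdr75 and Wdr43, repeat proteins of the same early subcomplex, rose by 0.52 and 0.45 and were also higher after median-of-ratios scaling. Bms1, a GTPase, and Nop14, a small-subunit assembly factor, rose by 0.38 each, and after that scaling their differences of 0.15 and 0.14 were not called (limma, adjusted p = 0.104 and 0.103). Noc4l, the partner of Nop14, measured 7.97, 6.4 and 5.73 FPKM in control and 7.96, 9.03 and 10.6 FPKM in stone samples. Stone 1 lay just below control 1, and the Noc4l call (limma, adjusted p = 0.0361) was lost in 4 of the 6 fits that left out a sample, those without control 2 or 3 or stone 2 or 3. It was also lost by median-of-ratios scaling, at 0.18 (limma, adjusted p = 0.275).

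Utp20 and Rrp9 overlapped between groups. Utp20, a very large scaffold protein, measured 5.46, 5.32 and 6.60 FPKM in control and 6.44, 6.72 and 6.00 FPKM in stone samples, where the highest 2 values came 1 from each group. Its difference was 0.12 with a 95% interval from -0.10 to 0.35 (limma, adjusted p = 0.294). Rrp9, which binds the U3 snoRNA, stood at 7.76 ± 0.915 and 8.82 ± 0.984 FPKM, with a difference of 0.17 (limma, adjusted p = 0.221). Both had a difference below 0 after median-of-ratios scaling (-0.10 and -0.06), so no direction was settled for them. With equal FPKM sums Utp20 and Rrp9 were called higher, at 0.36 and 0.41, and so was Bop1, at 0.41.

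Late steps of the small subunit were led by Tsr1, which had the largest increase of the 38 genes. Tsr1, a GTPase-like factor that sits on the maturing 40S particle, measured 6.10, 5.16 and 5.30 FPKM in control and 11.1, 10.6 and 11.4 FPKM in stone samples. That was 0.88 with a standard error of 0.081 (limma, adjusted p = 0.000196) as deposited and 0.66 when rescaled by median of ratios (limma, adjusted p = 0.000631). Tsr1 shares 1240 exonic bases, 32.3% of its exonic length, with Srr on the opposite strand, the gene of serine racemase. Srr moved in the other direction, from 36.8 to 37.95 FPKM in control samples to 23.5 to 26.0 FPKM in stone samples. Srr was the more abundant of the pair in every sample, and the part of Srr fragments in the Tsr1 values was not tested. Rrp12, an export factor, rose by 0.46. Nob1, the nuclease that makes the final cut of 18S RNA, and Ltv1, an export factor, rose by 0.41 and 0.29, and these 2 calls were lost when rescaled by median of ratios, at 0.18 and 0.05 (limma, adjusted p = 0.157 and 0.619).

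The PeBoW complex, in which Pes1, Bop1 and Wdr12 join to process the large-subunit RNA, had the smallest median difference of the 9 role groups, at 0.25. Wdr12 measured 5.27, 5.59 and 5.45 FPKM in control and 7.48, 8.82 and 7.17 FPKM in stone samples, a difference of 0.45 (limma, adjusted p = 0.00475). Pes1 rose from 20.5 ± 1.39 to 24.5 ± 0.893 FPKM, a call lost without control 1 or stone 2. Bop1 measured 13.94, 15.05 and 12.35 FPKM in control and 13.98, 14.96 and 17.33 FPKM in stone samples, and only stone 3 lay above all controls. The Bop1 difference of 0.15 did not pass (limma, adjusted p = 0.238). After median-of-ratios scaling none of the 3 was called. The rescaled differences were 0.23 for Wdr12, 0.0016 for Pes1 and -0.09 for Bop1, with limma adjusted p of 0.0749, 0.988 and 0.495. At an unadjusted p, Wdr12 was below 0.05 there (0.0399).

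All 9 genes of large-subunit maturation were called higher, against 43.5% of all tested genes. After median-of-ratios scaling 5 of them were, against 22.5% of all tested genes. Gnl3, which encodes nucleostemin, a GTPase of dividing and stem cells, measured 12.0, 12.4 and 10.7 FPKM in control and 20.3, 20.6 and 20.8 FPKM in stone samples. The Gnl3 difference was 0.77 with a standard error of 0.071 (limma, adjusted p = 0.000204). Rrp1b, a nucleolar protein that also binds chromatin, measured 2.33, 2.33 and 2.10 FPKM in control and 3.35, 4.61 and 4.90 FPKM in stone samples. It was the least abundant of the 38 genes in control samples, and stone 1 was well below the other two stone samples. Noc3l, an early 60S factor, rose by 0.64, Nop2, the methyltransferase whose promoter is shown above, by 0.51, and Gnl2, a GTPase needed for export, by 0.47.

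The other 4 large-subunit genes rose on the deposited scale. Noc2l, which also binds p53, the assembly factor Nop16, Rrs1, which helps to insert the 5S particle, and Ddx18 rose by 0.44, 0.42, 0.37 and 0.20. After median-of-ratios scaling the differences of Noc2l, Nop16 and Rrs1 were 0.19, 0.18 and 0.13 and were not called (limma, adjusted p = 0.059, 0.0662 and 0.176). Ddx18, an RNA helicase, measured 14.95, 15.95 and 15.04 FPKM in control and 17.65, 17.17 and 18.33 FPKM in stone samples. Its groups were separate but close, and its call (limma, adjusted p = 0.0273) was lost in 5 of the 6 fits that left out a sample and turned to -0.04 after median-of-ratios scaling. Noc2l shares 20.9% of its exonic length with Samd11 on the opposite strand, which was at most 0.05 FPKM in any sample.

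**Figure D3:**
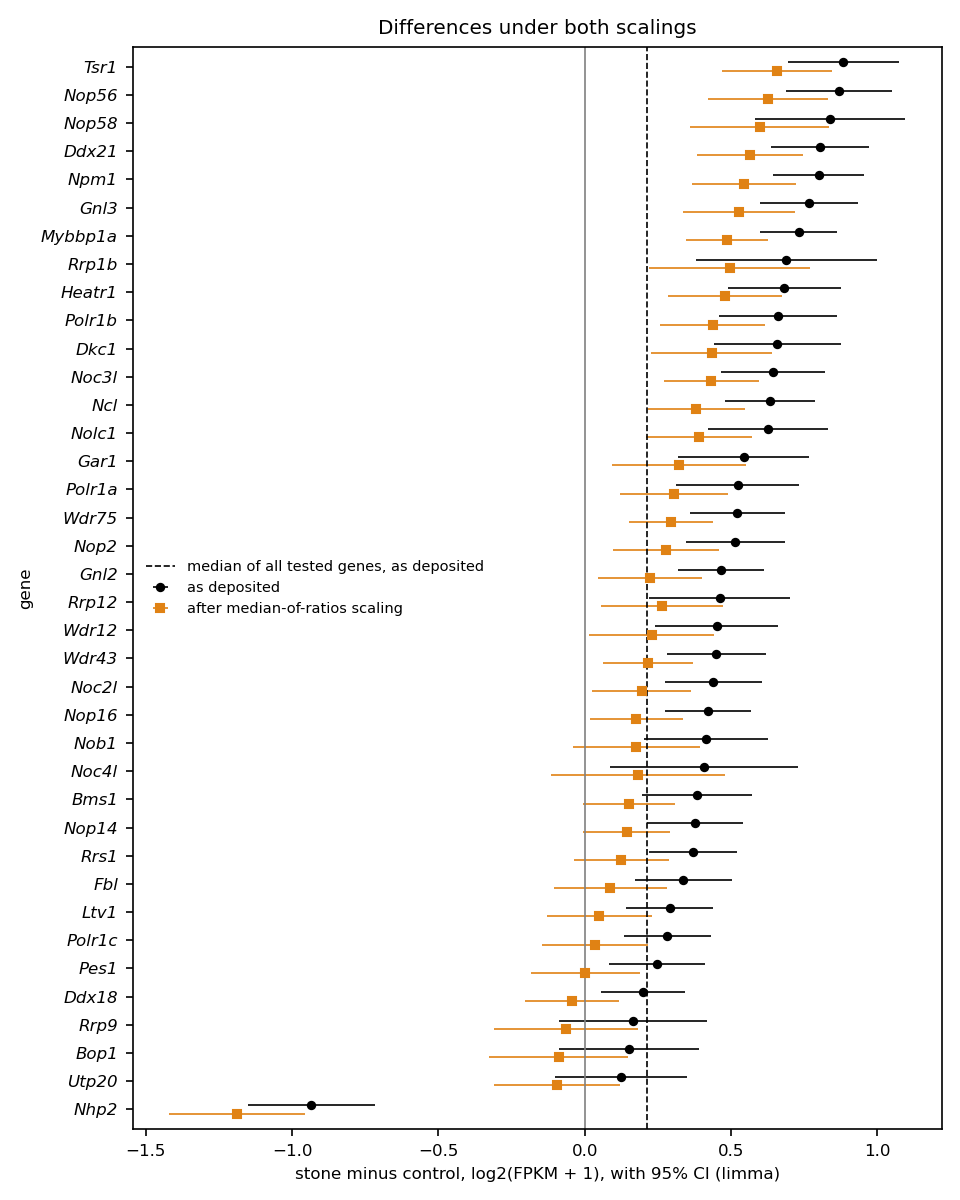
Difference between stone and control samples on the log2(FPKM + 1) scale with 95% confidence intervals from limma (horizontal axis) for the 38 genes (vertical axis), as deposited (circles) and after median-of-ratios scaling (squares). The dashed line is the median of all tested genes as deposited, 0.21, and rescaling moves every gene to the left.

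The 3 stone samples had similar medians. The median log2 ratio to the control mean over the 38 genes was 0.53, 0.60 and 0.65 in stone samples 1 to 3. Of the 34 genes called higher, 19 were highest in stone 3, 11 in stone 2 and 4 in stone 1. Summed FPKM of the 38 genes were 665, 657 and 643 in control and 880, 884 and 909 in stone samples. As a share of the FPKM sum without Kap they were 0.114%, 0.108% and 0.113% in control and 0.145%, 0.148% and 0.151% in stone samples, so the groups did not overlap on this scale either. Of the 38 genes, 17 were called higher under all 5 scalings tried and 13 under all 18 settings tried, and Nhp2 was called lower under all 18. The share of all tested genes that kept a call in this way is not given here. After median-of-ratios scaling alone, 22.5% of all tested genes were higher and 26.2% lower. Heatr1, Noc3l and Rrp1b are not among the 13 because their means were too low to be tested at a minimum of 5 FPKM.

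A feature of the genes that their selection did not use is that 7 of the 38 carry snoRNA genes inside them on the same strand, 21 in all by GENCODE M21. These are Nop56 with 5, Nop58 with 4, Ncl, Wdr43 and Gnl3 with 3 each, Tsr1 with 2 and Dkc1 with 1. All 7 rose under both scalings, with a median difference of 0.77. On the log2(FPKM + 1) scale the 3 genes with the largest increases, Tsr1, Nop56 and Nop58, were among them. By the ratio of mean FPKM, Rrp1b, which holds no snoRNA gene, came second at 1.90, between Tsr1 at 1.995 and Nop56 at 1.88. The other 31 genes had a median of 0.44, with 27 higher as deposited and 14 after median-of-ratios scaling. Over all 199 tested genes that hold a snoRNA, the median was 0.39, and 59.8% were higher, against 0.21 and 43.2% for the 12120 tested genes that do not. After median-of-ratios scaling 32.7% of the 199 and 22.4% of the 12120 were higher, and 32 and 3190 genes were lower. The split was made after the values were seen, so it is a description with no test.

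**Figure D4:**
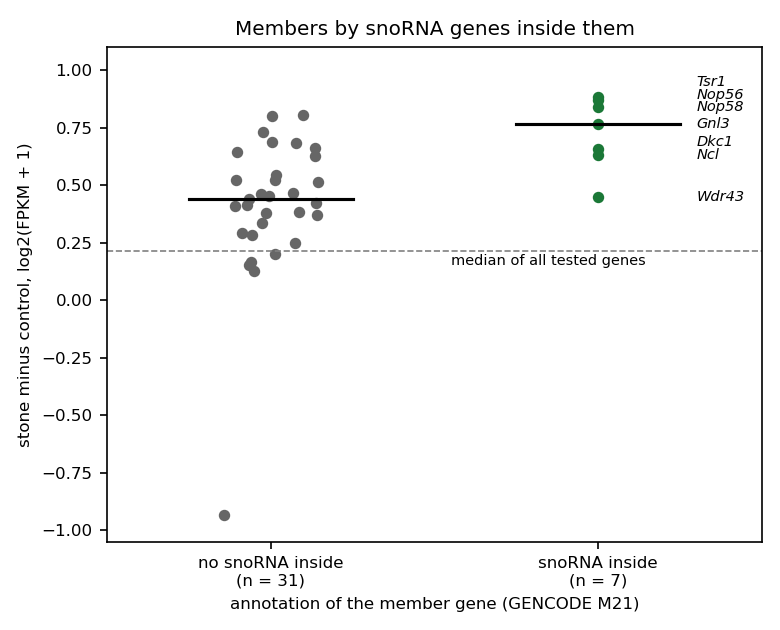
Difference between stone and control samples on the log2(FPKM + 1) scale as deposited (vertical axis) for the 31 genes without and the 7 genes with a snoRNA gene inside them (horizontal axis). Each point is 1 gene, bars are medians (0.44 and 0.77) and the dashed line is the median of all tested genes.

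Some of these values are uncertain because near-identical copies exist. Pseudogenes that share at least 100 stretches of 31 bases with the gene were found for 12 of the 38, most for Npm1 with 7 and Nop56 with 6. By share the largest was Ddx18, with 61.5% of its 31-base stretches in the pseudogene Gm16433. The largest share with a single pseudogene was 17.7% for Npm1 and 14.4% for Nop56. None of these pseudogenes is a row of the table, so how their fragments were assigned was not tested. Fbl also shares 20.7% of its 31-base stretches, in antisense, with the coding gene Tulp4, and the part of Tulp4 fragments in its values was not tested.

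Other genes of the pathway had a smaller median difference. Of 125 further pathway genes, all tested, 76 were higher and 5 lower, with a median difference of 0.28, and after median-of-ratios scaling 23 were higher and 21 lower with a median of 0.05 (limma, adjusted p below 0.05). By role, 33 of 42 large-subunit genes, 27 of 45 small-subunit genes, 5 of 13 genes of RNA polymerase I, 5 of 11 of snoRNA particle assembly and 6 of 14 of the nuclear exosome were higher, against 43.5% of all tested genes. After median-of-ratios scaling 10, 9, 3, 0 and 1 genes of these groups were higher and 5, 7, 2, 3 and 4 lower, in the same order. Of all 125 genes 18.4% were then higher, against 22.5% of all tested genes, of which 26.2% were lower. Taf1d, a subunit of the RNA polymerase I selectivity factor, measured 8.96, 10.4 and 10.2 FPKM in control and 21.1 FPKM in each stone sample, with a difference of 1.03 (limma, adjusted p = 6.98e-05). Utp14a, a small-subunit factor, and Eif6, which keeps the subunits apart, rose by 0.83 and 0.86. Ruvbl2 of particle assembly and Exosc10 of the exosome rose by 0.43 and 0.39, and both calls were lost by median-of-ratios scaling, at 0.19 and 0.15 (limma, adjusted p = 0.0861 and 0.118).

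The 5 genes called lower were Mtrex, Wdr18, Rpap3, C1d and Rcl1. Mtrex, the RNA helicase that feeds the nuclear exosome, measured 34.9, 36.8 and 37.1 FPKM in control and 18.2, 17.8 and 18.1 FPKM in stone samples. Its difference of -0.97 (limma, adjusted p = 3.38e-05) was close in size to that of Nhp2. Wdr18, of the complex that removes the internal spacer, fell by 0.46 and Rpap3, of the chaperone complex that assembles snoRNA particles, by 0.37. C1d, an exosome cofactor named here only to complete the count, fell by 0.27. Rcl1, a small-subunit factor, had a deposited-scale difference of -0.23 (limma, adjusted p = 0.0439), which was 0.02 with equal FPKM sums, where the calls of Rpap3 and C1d were lost too (-0.11 and 0.00061) and those of Mtrex and Wdr18 were not (-0.70 and -0.19). The Rcl1 and C1d calls were also lost without control 1 or 2 or stone 1 or 3.

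Genes for proteins of the cytosolic ribosome were mostly higher and those of the mitochondrial ribosome often lower. Of 80 cytosolic ribosomal protein genes, 70 were higher and 0 lower (limma, adjusted p below 0.05, and 73 and 0 at an unadjusted p below 0.05), with a median difference of 0.48. After median-of-ratios scaling 25 were higher and 1 lower, and after quantile normalization 78 and 0. Adding the 3 paralogs whose symbols end in l, which the definition of the list leaves out, gave 83 genes with 70 higher and 1 lower, the muscle paralog Rpl3l at -0.78. Of 78 mitochondrial ribosomal protein genes, 3 were higher and 34 lower, with a median of -0.21, and after median-of-ratios scaling 0 were higher and 57 lower, with a median of -0.46. For both lists the background was 43.5% of all tested genes higher and 13.9% lower as deposited. It was 22.5% and 26.2% after median-of-ratios scaling, and 2744 and 3138 of 12319 genes after quantile normalization.

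**Figure D5:**
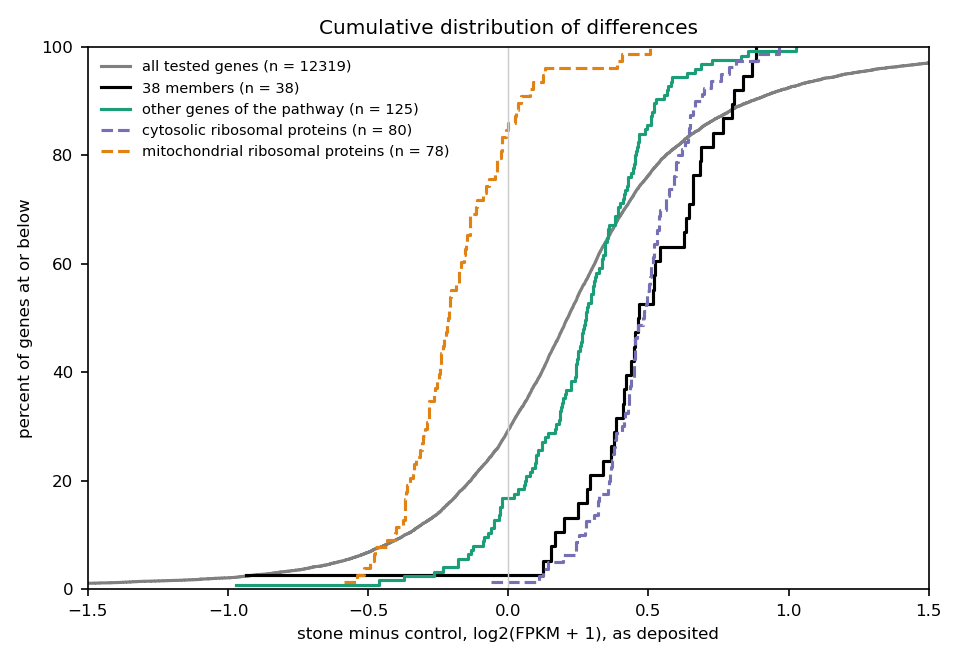
Cumulative percent of genes (vertical axis) by the difference between stone and control samples on the log2(FPKM + 1) scale as deposited (horizontal axis), for the 38 genes, 125 other pathway genes, cytosolic and mitochondrial ribosomal protein genes and all tested genes. The medians are 0.46, 0.28, 0.48, -0.21 and 0.21.

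Regulators of ribosome production and markers of cell types moved as well. Of 12 regulators tested, 7 were higher and 1 was lower as deposited, where 43.5% of all tested genes were higher and 13.9% lower. After median-of-ratios scaling 4 were higher and 4 lower, where 22.5% of all tested genes were higher and 26.2% lower. The list holds genes that drive growth, such as Myc, and inhibitors, such as Cdkn1a, so its counts carry no direction. Myc, which drives many of these genes in growing cells, measured 1.85, 3.96 and 10.1 FPKM in control and 16.4, 14.7 and 17.5 FPKM in stone samples. The Myc control samples were spread widely, and the difference was 1.67 with a standard error of 0.43 (limma, adjusted p = 0.0139). Trp53, the p53 gene, and its target Cdkn1a, a cell cycle inhibitor, rose by 0.73 and 3.00. Mtor, the kinase that promotes ribosome production, was chosen once its values were known and was the regulator that fell, from 46.6 ± 3.29 to 23.0 ± 1.23 FPKM (limma, adjusted p = 8.91e-05). All 10 cell division markers rose, with summed FPKM of 48.1 to 53.6 in control and 108 to 132 in stone samples. Mki67 had the smallest p of them, and 9 of the 10 were still called higher after median-of-ratios scaling.

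Macrophage markers rose in 7 of 8 genes, from sums of 60.7 to 65.1 FPKM to 159 to 294 FPKM, and C1qc had the smallest p. Fibroblast markers rose in 6 of 6, from 35.7 to 49.7 FPKM to 114 to 192 FPKM, and Col1a1 had the smallest p. Of 10 proximal tubule markers 6 fell and 1 rose. Of all tested genes 43.5% were higher and 13.9% lower. After median-of-ratios scaling 7 macrophage and 6 fibroblast markers were higher, and 7 proximal tubule markers were lower and 1 higher. Of all tested genes 22.5% were then higher and 26.2% lower. Sums of the proximal tubule markers, which are mostly Kap, were 151399 to 182362 FPKM in control and 12178 to 17651 FPKM in stone samples. The T, B and NK cell markers were all too low to be tested, with sums of 2.08 to 4.73 FPKM in control and 1.43 to 1.86 FPKM in stone samples. The part of cell division or of these cell types in the differences of the 38 genes was not tested.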

How the data were processed

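Total RNA of whole kidney was sequenced in 6 samples, 3 per group, from libraries in which dUTP marked the second strand, per the labels' protocols. Reads were aligned with HISAT2 2.0.4 to GRCm38.p6, per the submitters' processing notes, and the sources used here name no gene quantifier or annotation. The authors deposited FPKM per gene and sample. Which total they divided by is unknown, so sequencing depth is unknown, no counting interval can be given and no count model was used.

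The 12319 genes whose mean reached 1 FPKM were transformed to log2(FPKM + 1) and stone was compared with control with limma 3.58.1 in R 4.3.3 (eBayes with a trend, two-sided, Benjamini-Hochberg over all tested genes, threshold 0.05), after a test on simulated data. Genes named are all 38, the called pathway gene of smallest p per role and direction, the called gene of smallest p per marker list, Myc and Trp53. The 38 genes and all lists were chosen with earlier results of these data known. The ribosomal protein list was corrected after its counts were seen, to match its written definition, and both counts are given. Alternatives were 5 scalings in all, other pseudocounts, filters, variance models and weights, a replicate block and leaving out each sample. Samples with the same replicate number did not deviate together, so the numbers were not treated as pairs. Positions, snoRNA genes and exon overlaps are from GENCODE M21 (GRCm38), and promoters from RefSeq.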

Additional observations from a re-analysis of the deposited data

How the results depend on the processing

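Counts of calls by limma moved by more than 1.5 times mainly with scaling. Genes called higher among the 38 numbered 34 as deposited, 21 after median-of-ratios scaling, 20 after quantile normalization and 31 to 33 when 1 sample was left out, and the 1 lower gene stayed Nhp2 in all of these. For all tested genes, 2776, 2744 and 8440 were higher and 3222, 3138 and 797 lower after median-of-ratios scaling, quantile normalization and equal FPKM sums, and leaving out 1 sample gave 4173 to 5269 and 1355 to 1686. For the other pathway genes, median-of-ratios scaling gave 23 higher and 21 lower, quantile normalization 26 and 19, equal FPKM sums 2 lower, array weights 11 lower, and leaving out 1 sample 53 to 68 higher and 3 to 7 lower. For cytosolic ribosomal proteins, median-of-ratios scaling gave 25 higher and 1 lower, quantile normalization 78 and 0, leaving out 1 sample gave 65 to 74 and 0, and symbols ending in l, added after seeing the data, gave 1 lower.

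The direction turned for Utp20 (-0.095, -0.19), Rrp9 (-0.064, -0.12), Bop1 (-0.089, -0.081) and Ddx18 (-0.044, -0.029) after median-of-ratios scaling and quantile normalization, and for Rcl1 and C1d with equal FPKM sums (0.023 and 0.00061), and for Nop10, below 0 as deposited, after quantile normalization (0.011) and with equal FPKM sums (0.19). The correlation of deviations between samples with the same replicate number was 0.0075, -0.22 and -0.04, so they share only a number. With FPKM sums without Kap, the calls of Noc4l, Ddx18 and Pes1 were lost. With array weights Noc4l was lost and Rrp9 and Utp20 were called higher, at 0.22 and 0.20. With the replicate block, 2 of the 34 higher calls among the 38 genes were lost, Ddx18 and Noc4l. The block with median-of-ratios scaling gave 17 higher among the 38, 17 higher and 16 lower among the other pathway genes, 16 higher and 1 lower among ribosomal proteins, and 2413 higher and 2905 lower among all tested genes, and it gave -0.095 for Utp20, -0.064 for Rrp9, -0.089 for Bop1 and -0.044 for Ddx18. The causes were not tested.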
